A study of Mus musculus with 54 samples.

Results

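The 9 genes described here carry fatty acids into liver cells and bind them inside: Cd36, Slc27a2, Slc27a4, Lpl, Vldlr, Fabp1, Fabp2, Fabp4 and Fabp5. They were chosen by name, and all 9 were among the 13815 genes of the expression table. The study compared livers of mice with and without folliculin (Flcn) in hepatocytes, by RNA-seq in 15 libraries and by ChIP-seq of the transcription factor TFE3 and of an HA-tagged nuclear SREBP-1c. All RNA-seq mice carried floxed Flcn alleles and received an AAV8 virus with the TBG promoter, which is active in hepatocytes. Control mice received GFP, LiFKO mice received Cre, and DKO mice received Cre and also lacked Tfe3 in the whole body (Tfe3-/Y). Control and LiFKO mice were fed normal chow or the AMLN diet, which is rich in fat, fructose and cholesterol, for 17 to 18.5 weeks, and DKO mice the AMLN diet. Each of these 5 groups had 3 libraries of liver taken after a fast of 4 to 6 hours. DKO mice come from a cross of their own, so the line and the loss of Tfe3 cannot be told apart. For ChIP-seq, Control and LiFKO livers were taken on chow, or after 9 days of the FPC diet, which holds fructose, palmitate and cholesterol. Some FPC mice also received a virus for HA-tagged nSREBP-1c, the active form of a regulator of lipid synthesis, under a liver-specific ApoE/AAT promoter, and these are labelled Control+1c and LiFKO+1c. The GFP or Cre virus was given at 1.5e11 genome copies in the RNA-seq, chow ChIP and +1c mice, at 2.5e11 in the other FPC mice, and the nSREBP-1c virus at 1.0e11, so FPC mice with and without nSREBP-1c also differ in this dose. Ages are not given in the sources used here, and the labels number the libraries without saying that each is 1 mouse, so p-values measure the spread between libraries.

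Fatty acids reach the liver bound to albumin or packed as triglyceride in lipoproteins. Lipoprotein lipase (Lpl) frees them from lipoproteins at the vessel wall, and the VLDL receptor (Vldlr) binds triglyceride-rich particles. CD36 moves free fatty acids across the plasma membrane, the SLC27 proteins couple uptake to activation with coenzyme A, and the FABP proteins carry the hydrophobic chains through the cytosol. Fabp1 is the liver form, Fabp2 the intestinal form, Fabp4 the adipocyte and macrophage form and Fabp5 the epidermal form. Cd36, Fabp1, Fabp4, Lpl and Vldlr are textbook targets of the PPAR nuclear receptors, which bind direct repeats of AGGTCA with a spacer of 1 base. TFE3 binds E-boxes with the core CACGTG and enters the nucleus when folliculin is lost.

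RefSeq promoters of build GRCm38.p6 were found for 6 of the 9 genes (7 sequences, since Vldlr has 2), and the 250 bases before each start were searched on both strands. Fabp1 and Slc27a4 are shown because a TFE3 peak lay at the start of each gene, and Cd36 because it had the most TFE3 sites and its RNA rose strongly. Each runs 5′ to 3′ along the gene's strand and ends at the base before the start. Capitals mark matches to AGGTCA on either strand, to a relaxed pair of such sites, or to the loose E-box CANNTG.
Fabp1, chr6:71199629-71199878, plus strand: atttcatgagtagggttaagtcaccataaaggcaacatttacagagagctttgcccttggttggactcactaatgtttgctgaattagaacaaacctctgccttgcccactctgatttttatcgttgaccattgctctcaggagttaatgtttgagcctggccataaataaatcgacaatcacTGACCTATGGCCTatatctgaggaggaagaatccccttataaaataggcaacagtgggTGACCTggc
Slc27a4, chr2:29802384-29802633, plus strand: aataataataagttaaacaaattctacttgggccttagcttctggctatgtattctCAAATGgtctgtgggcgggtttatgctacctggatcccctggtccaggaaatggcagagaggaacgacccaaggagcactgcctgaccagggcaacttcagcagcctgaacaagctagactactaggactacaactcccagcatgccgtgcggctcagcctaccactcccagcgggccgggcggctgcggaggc
Cd36, chr5:17835897-17836146, minus strand: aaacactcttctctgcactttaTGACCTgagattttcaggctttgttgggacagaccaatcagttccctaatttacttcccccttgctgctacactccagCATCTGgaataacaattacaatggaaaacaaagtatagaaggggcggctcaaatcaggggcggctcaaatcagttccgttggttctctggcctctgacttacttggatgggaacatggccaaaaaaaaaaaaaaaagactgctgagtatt
None of the 7 promoters held CACGTG, its longer form TCACGTGA, the sterol regulatory element TCACNCCAC or the exact PPAR element DR1, a direct repeat of AGGTCA with 1 base between. Among 32851 promoters of this length, 6.02% held CACGTG, 0.785% held TCACGTGA, 1.05% held TCACNCCAC and 0.0335% held the exact DR1. Looser forms were searched after that result was seen. A relaxed DR1, in which each copy may read AGGNCA, was in 0.338% of promoters and matched once, in Fabp1, beginning 67 bases before the start, where it includes 1 of the 2 AGGTCA matches of that promoter. AGGTCA alone, in 14% of promoters, also matched Cd36 228 bases and Slc27a2 220 bases before the start. CANNTG, in 66.2% of promoters, matched 5 of the 6 genes, all but Fabp1, so its presence is common. CATGTG, in 12.3% of promoters, matched none of the 7.

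Expression values are the authors' log2 values, brought to 1 common distribution (quantile normalised); their read depth is unknown, and they are not per length, so levels are not compared between genes. Flcn was lower in LiFKO than in Control livers on chow by 1.03 (SE 0.17, limma adjusted p = 0.000394) and on AMLN by 0.57 (SE 0.17, adjusted p = 0.0257). Tfe3 RNA did not set the DKO libraries apart: it read 10.2, 9.88 and 9.89 there, against 9.92, 10.02 and 10.07 in AMLN LiFKO. A value over the whole gene does not test a partial deletion, so directions below are of the libraries labelled DKO. Flcn was lower again in the libraries labelled DKO, by 0.92 than in AMLN LiFKO (difference -0.92, SE 0.17, adjusted p = 0.00242), so DKO and LiFKO livers differ in Flcn RNA too. Of 8 hepatocyte markers 7 were measured, of which 0 rose and 2 fell (Alb and Asgr1) with Flcn loss on chow. On AMLN limma called 0 of the 7 (1 higher and 2 lower at an unadjusted p under 0.05), with Cps1 at 0.5 and Alb at -0.82. Alb holds the highest ranks, where a shared distribution leaves it 1 of a few values. Without Alb the markers summed to 19.94 to 20.42 (log2) in chow LiFKO and 20.2 to 20.28 in AMLN LiFKO, and to 20.23 to 20.55 in the other 3 groups. AMLN Control replicate 3 stood apart from its 2 partners in several of the genes, and results that rest on it are given with and without it.

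In chow-fed mice, loss of Flcn in hepatocytes went with more Cd36, Lpl, Fabp5 and Slc27a2 and with much less Vldlr. Cd36 and Lpl were each 7.39-fold higher, and Vldlr was 16.2-fold lower. On the AMLN diet the Cd36 and Lpl differences were smaller than on chow, at 0.76 and 0.34 (log2), and were not called. Vldlr, Fabp1 and Fabp4 were lower in LiFKO there. The AMLN diet alone raised 6 of the 9 genes in Control mice, where 22.8% of all genes were called (11.2% higher, 11.6% lower). That count was 4 to 6 under the alternatives, in which the calls lost were those of Fabp5 and Fabp1. In the libraries labelled DKO, Fabp1 and Vldlr were higher than in AMLN LiFKO. Changes are limma log2 fold changes with their standard errors, and a gene is called at an adjusted p under 0.05 over all 13815 genes. Comparisons share libraries: each Control and LiFKO group enters more than 1 of them.

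**Figure D1:**
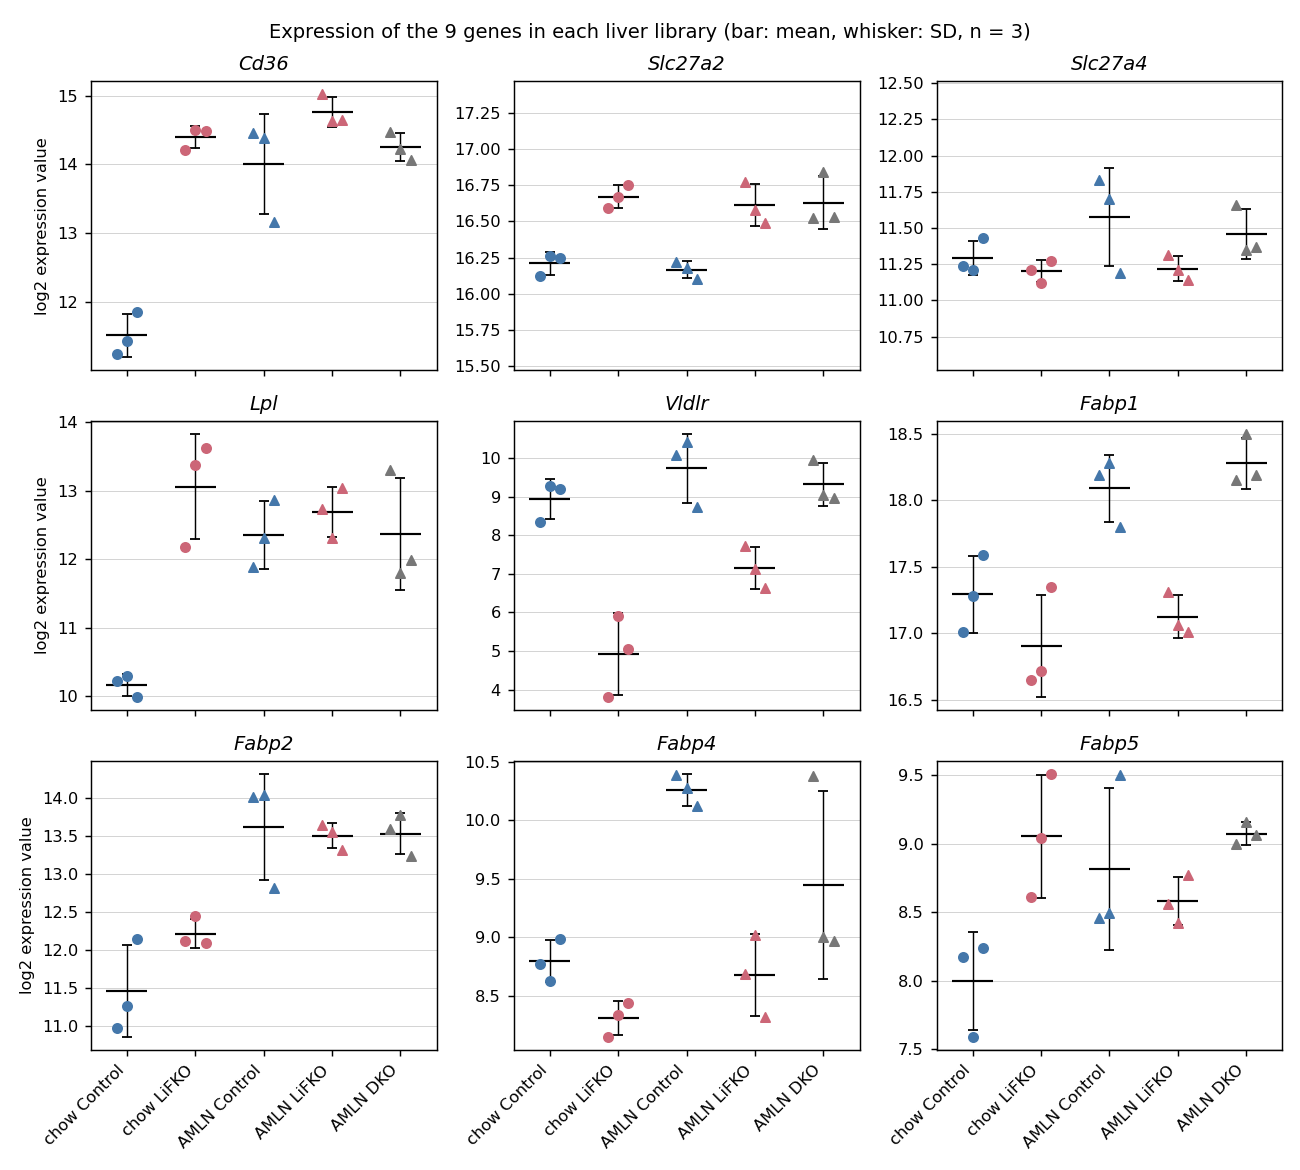
Log2 expression value (vertical axis) of each of the 9 genes in every library, by group, with circles for chow and triangles for AMLN; bars are group means and whiskers SD (n = 3). Cd36 and Lpl sit low only in chow Control, and Vldlr sits lowest in the LiFKO groups, at means of 4.93 on chow and 7.16 on AMLN.

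Cd36 (ENSMUSG00000002944, mm9 chr5:17287508-17394777), the fatty acid translocase, had log2 values of 11.24, 11.44 and 11.86 in chow Control. In chow LiFKO they were 14.21, 14.5 and 14.48. The groups did not overlap, and Cd36 rose by 2.89 (SE 0.27, adjusted p = 4.25e-06). AMLN Control libraries read 14.46, 14.39 and 13.16, the third well below the others but still above every chow Control library. The diet therefore came with a rise of 2.49 (SE 0.27, adjusted p = 0.000102), or 2.92 (adjusted p = 1.32e-06) without that library. AMLN LiFKO libraries read 15.02, 14.63 and 14.65, higher than all AMLN Control libraries, yet the difference of 0.76 (SE 0.27) was not called (adjusted p = 0.0631). It was called without AMLN Control replicate 1 or replicate 2 (lowest adjusted p = 0.03), and it shrank to 0.34 (adjusted p = 0.208) without replicate 3. The libraries labelled DKO read 14.47, 14.23 and 14.07, all below the AMLN LiFKO libraries, with a difference of -0.51 (SE 0.27, adjusted p = 0.268). Ordered by mean, Cd36 ran from AMLN LiFKO through chow LiFKO, AMLN DKO and AMLN Control to chow Control. AMLN LiFKO and chow Control were each apart from their neighbour in this order, while chow LiFKO, AMLN DKO and AMLN Control overlapped in turn.

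Slc27a2 (ENSMUSG00000027359, mm9 chr2:126378143-126413979) encodes a fatty acid transport protein with very-long-chain acyl-CoA synthetase activity that is abundant in liver. Chow Control libraries read 16.12, 16.26 and 16.25, and chow LiFKO libraries 16.59, 16.67 and 16.75. AMLN Control libraries read 16.22, 16.18 and 16.1, AMLN LiFKO libraries 16.77, 16.58 and 16.49, and those labelled DKO 16.52, 16.84 and 16.53. All 6 LiFKO libraries lay above all 6 Control libraries, a small shift with little spread. Slc27a2 rose by 0.46 on chow (1.38-fold, SE 0.11, adjusted p = 0.00856) and by 0.45 on AMLN (1.37-fold, SE 0.11, adjusted p = 0.0121). Leaving out AMLN LiFKO replicate 1 ended the call on AMLN (adjusted p = 0.0645). Against AMLN Control the libraries labelled DKO were higher by 0.47 (SE 0.11), which was not called (adjusted p = 0.0841), and against AMLN LiFKO they differed by 0.02 (95% interval -0.23 to 0.26). Between the diets the LiFKO effect differed by -0.01 (95% interval -0.36 to 0.34).

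Slc27a4 (ENSMUSG00000059316, mm9 chr2:29658154-29673042), a related transport protein best known from intestine and skin, varied least, with group means from 11.2 to 11.57. No comparison called it. Its AMLN Control values were 11.83, 11.7 and 11.19. Without the third of these, Slc27a4 was called higher with the diet (0.47, adjusted p = 0.00898) and lower in AMLN LiFKO than in AMLN Control (-0.55, adjusted p = 0.00366). With all libraries these differences were 0.28 (SE 0.14, adjusted p = 0.165) and -0.35 (SE 0.14, adjusted p = 0.0945).

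Lpl (ENSMUSG00000015568, mm9 chr8:71404390-71431347), which is low in healthy adult hepatocytes and also made by macrophages and adipocytes, read 10.23, 10.29 and 9.99 in chow Control. Chow LiFKO libraries read 12.18, 13.37 and 13.62, AMLN Control libraries 11.88, 12.31 and 12.87, and AMLN LiFKO libraries 12.73, 12.31 and 13.04. Every other group thus lay above chow Control without overlap. Lpl rose by 2.89 with loss of Flcn on chow (SE 0.4, adjusted p = 0.000112) and by 2.18 with the diet in Control mice (SE 0.4, adjusted p = 0.00215). On AMLN the LiFKO and Control libraries overlapped, with a difference of 0.34 (95% interval -0.51 to 1.19, adjusted p = 0.607). The libraries labelled DKO read 13.3, 11.8 and 11.99, with the first above both partners. In bulk liver, fewer cells of a type and less RNA per cell cannot be told apart. Of 12 macrophage and Kupffer cell markers 11 were measured. Their summed level ran from 13.86 to 14.85 (log2) in chow Control, 14.1 to 14.52 in chow LiFKO, 14.65 to 14.96 in AMLN Control, 14.56 to 15.45 in AMLN LiFKO and 14.14 to 14.94 in AMLN DKO. In chow LiFKO 1 of the 11 rose, Cd68, a lysosomal protein (2.22, SE 0.27), and with the diet in Control mice 6 rose. Of 9 endothelial markers, Stab2 (1.02, SE 0.13) and Lyve1 (1.33, SE 0.27) rose in chow LiFKO, Stab2 rose in AMLN LiFKO (1.45, SE 0.13), and Lyve1 rose with the diet (1.09, SE 0.27). The endothelial sum ran from 13.96 to 14.28 in chow Control, 14.26 to 14.42 in chow LiFKO, 13.99 to 14.18 in AMLN Control, 14.49 to 14.58 in AMLN LiFKO and 14.18 to 14.38 in AMLN DKO. Of 6 stellate cell markers, Col1a1 (2.31), Lrat (0.6) and Pdgfrb (0.69) rose with the diet in Control mice, and the sum went from 12.76 to 13.13 in chow Control to 13.26 to 13.62 in AMLN Control. The part of such cells in the Lpl values was not tested.

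The size of the Cd36 and Lpl rise with Flcn loss differed between the diets. The LiFKO effect was smaller on AMLN than on chow for Cd36 (log2 difference -2.12, SE 0.38, adjusted p = 0.0203) and for Lpl (difference -2.54, SE 0.56, adjusted p = 0.0476). These were the only 2 of the 9 genes called, both lower, where 1.04% of all genes were (0.282% higher, 0.76% lower). The Cd36 call held in 8 of 12 fits that left out 1 library, with differences from -2.55 to -1.89, and ended without any 1 of chow Control replicate 2, AMLN Control replicates 1 and 2, and AMLN LiFKO replicate 2 (highest adjusted p = 0.0619). The Lpl call held in 1 of these 12 fits, the one without chow LiFKO replicate 1, with differences from -2.98 to -2.26 and adjusted p up to 0.102.

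Vldlr (ENSMUSG00000024924, mm9 chr19:27290974-27328721) changed most of the 9 genes with loss of Flcn. Chow Control libraries read 8.35, 9.28 and 9.21, and chow LiFKO libraries 3.81, 5.91 and 5.06. AMLN Control libraries read 10.07, 10.41 and 8.73, AMLN LiFKO libraries 7.72, 7.12 and 6.63, and those labelled DKO 9.96, 9.04 and 8.97. On both diets all LiFKO libraries were below all Control libraries, and those labelled DKO were above all AMLN LiFKO libraries. Vldlr fell by 4.02 on chow (SE 0.52, adjusted p = 7.32e-05) and fell by 2.58 on AMLN (SE 0.52, adjusted p = 0.00291). It was higher by 2.17 (4.49-fold) in the libraries labelled DKO than in AMLN LiFKO (SE of the log2 value 0.52, adjusted p = 0.0157). Leaving out AMLN LiFKO replicate 3 or AMLN DKO replicate 1 ended that call (highest adjusted p = 0.0685). Against AMLN Control the libraries labelled DKO differed by -0.42 (95% interval -1.54 to 0.7). Within LiFKO mice Vldlr was higher on AMLN than on chow by 2.23 (SE 0.52, adjusted p = 0.0316). In 4 of 6 fits that left out 1 library (chow LiFKO replicate 1 or 3, AMLN LiFKO replicate 1 or 2) this was not called, with rises down to 1.67 and adjusted p up to 0.119. The between-diet difference of 1.43 in its LiFKO effect was not called (95% interval -0.15 to 3.01, adjusted p = 0.372).

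Among the binding proteins, Fabp1 (ENSMUSG00000054422, mm9 chr6:71149821-71155017) separated by genotype on the AMLN diet. There, Control libraries read 18.19, 18.28 and 17.8, AMLN LiFKO libraries 17.31, 17.06 and 17.01, and those labelled DKO 18.15, 18.5 and 18.19. The AMLN LiFKO libraries lay below all libraries of both other AMLN groups. Fabp1 fell by 0.96 against AMLN Control (SE 0.21, adjusted p = 0.00475) and was higher by 1.15 in the libraries labelled DKO (SE 0.21, adjusted p = 0.00265), both in all 6 fits that left out 1 library. On chow the Control libraries read 17.01, 17.28 and 17.59 and the LiFKO libraries 16.65, 16.72 and 17.35, an overlap with a difference of -0.39 (SE 0.21, adjusted p = 0.193). Chow replicate numbers were also taken as pairs, which the labels do not state. With the replicate number as a block Fabp1 was called lower on chow (-0.39, adjusted p = 0.0404), as it was without chow LiFKO replicate 3 (-0.61, adjusted p = 0.0458). With the diet Fabp1 rose by 0.79 in Control mice (SE 0.21, adjusted p = 0.0154), which was no longer called when chow Control replicate 1 or AMLN Control replicate 1 or 2 was left out (highest adjusted p = 0.0721). Fabp1 stands near the top of each library (99.8% of genes had lower means), a range where a common distribution leaves few ranks for a value to move.

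Fabp2 (ENSMUSG00000023057, mm9 chr3:122597990-122602424) followed the diet. Chow Control libraries read 10.98, 11.27 and 12.14 and chow LiFKO libraries 12.12, 12.44 and 12.09, while the 9 AMLN libraries lay between 12.81 and 14.03. Every AMLN library was above every chow library. Fabp2 rose by 2.16 in Control mice (SE 0.31, adjusted p = 0.000548) and by 1.29 in LiFKO mice (SE 0.31, adjusted p = 0.0351). The second of these was not called in any of the 6 fits that left out 1 library (adjusted p from 0.0632 to 0.107). On chow the LiFKO difference of 0.76 (SE 0.31, adjusted p = 0.0877) was called only with the replicate block (0.76, adjusted p = 0.0434) or without chow Control replicate 3 (adjusted p = 0.0168). Of 7 enterocyte markers 1, Lgals4, had a row in the table, at 8.83 to 10.47 in all 15 libraries and not called in any comparison.

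Fabp4 (ENSMUSG00000062515, mm9 chr3:10204347-10208576) read 8.77, 8.63 and 8.99 in chow Control and 8.15, 8.34 and 8.44 in chow LiFKO, all lower but not called (-0.49, SE 0.29, adjusted p = 0.253). On AMLN, Control libraries read 10.39, 10.28 and 10.12, and AMLN LiFKO libraries 8.69, 9.02 and 8.32. The diet thus separated Control livers, and AMLN LiFKO livers read like chow Control livers, with overlapping values. Fabp4 rose by 1.47 with the diet in Control mice (SE 0.29, adjusted p = 0.00374) and was lower by 1.59 in AMLN LiFKO than in AMLN Control (SE 0.29, adjusted p = 0.00158). In that comparison 1 of the 11 macrophage markers, Lgals3, also fell by 1.4 (SE 0.38, adjusted p = 0.0174), and 2 rose (Cd68 and Vsig4). At an unadjusted limma p under 0.05, 4 of the 11 were higher and 1 was lower. Markers not called went both ways. Trem2 differed by -1.62 (SE 0.76, adjusted p = 0.159), while means rose from 8.56 to 10.94 for Marco and from 8.49 to 9.52 for Timd4. Of the 6 stellate cell markers 1, Col1a1, fell by 1.53 (SE 0.44, adjusted p = 0.024). The libraries labelled DKO were split: replicate 1 read 10.38, inside the AMLN Control range, and the others read 9 and 8.97. Without that replicate Fabp4 was called lower than in AMLN Control (-1.28, adjusted p = 0.00481), against -0.81 (SE 0.29, adjusted p = 0.24) with it. The same library was the highest of its group for Lpl, for the macrophage genes Trem2 (8.61 against 6.43 and 4.83) and Lgals3 (10.06 against 8.66 and 8.72), and for Cfd (10.04 against 8.8 and 7.81). Of the 11 macrophage markers, it was the highest for all but Marco (9.04 against 7.95 and 11.21) and Timd4 (8.79 against 8.11 and 9.11). Cfd, made by adipocytes and macrophages, was the 1 of 5 adipocyte markers with a row in the table. It read 3.73 to 4.51 in chow Control and 8.01 to 8.92 in AMLN Control (a rise of 4.44, SE 0.59), and 3.21 to 5.56 in chow LiFKO and 7.18 to 7.64 in AMLN LiFKO. The part of these cells in the Fabp4 values was not tested.

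Fabp5 (ENSMUSG00000027533, mm9 chr3:10012548-10016607) changed less. Chow Control libraries read 8.17, 7.59 and 8.24, and chow LiFKO libraries 8.61, 9.04 and 9.51, all higher. Fabp5 rose by 1.05 (SE 0.28, adjusted p = 0.012). It was not called without chow Control replicate 2 (adjusted p = 0.0601) or chow LiFKO replicate 3 (adjusted p = 0.0586). On the AMLN diet, Control libraries read 8.46, 8.49 and 9.5, AMLN LiFKO libraries 8.56, 8.42 and 8.77, and those labelled DKO 9, 9.16 and 9.06. The diet came with a rise of 0.82 in Control mice (SE 0.28, adjusted p = 0.0462), which fell to 0.48 (adjusted p = 0.166) without AMLN Control replicate 3 and was not called without chow Control replicate 1 or 2 either. It was also not called with only the compared groups in the fit (adjusted p = 0.1) or with no mean-variance trend (adjusted p = 0.0607).

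By count, loss of Flcn on chow raised 4 of the 9 genes and lowered 1, where 25.7% of all genes were called (12.5% higher, 13.2% lower). With the replicate block it called 7 of the 9, Fabp1 and Fabp2 being added. On AMLN, Flcn loss raised 1 and lowered 3, where 19.7% were called (10.1% higher, 9.63% lower). The diet raised 6 of the 9 in Control mice and lowered 0 (0 also at an unadjusted p under 0.05), against the 22.8% given above. In LiFKO mice the diet raised 2 and lowered 0 (0 at an unadjusted p under 0.05), where 3.74% were called (1.58% higher, 2.16% lower). The libraries labelled DKO were higher than AMLN LiFKO for 2 and lower for 0 (0 at an unadjusted p under 0.05), where 11.0% were called (5.05% higher, 5.97% lower). Against AMLN Control limma called 0 of the 9, and 2 had an unadjusted p under 0.05 (Slc27a2 and Fabp4), where 0.651% of all genes were called (0.449% higher, 0.203% lower). The median change of the 9 genes was 0.82 with the diet in Control mice, against -0.04 over all genes, and 0.46 with Flcn loss on chow, against -0.05.

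**Figure D2:**
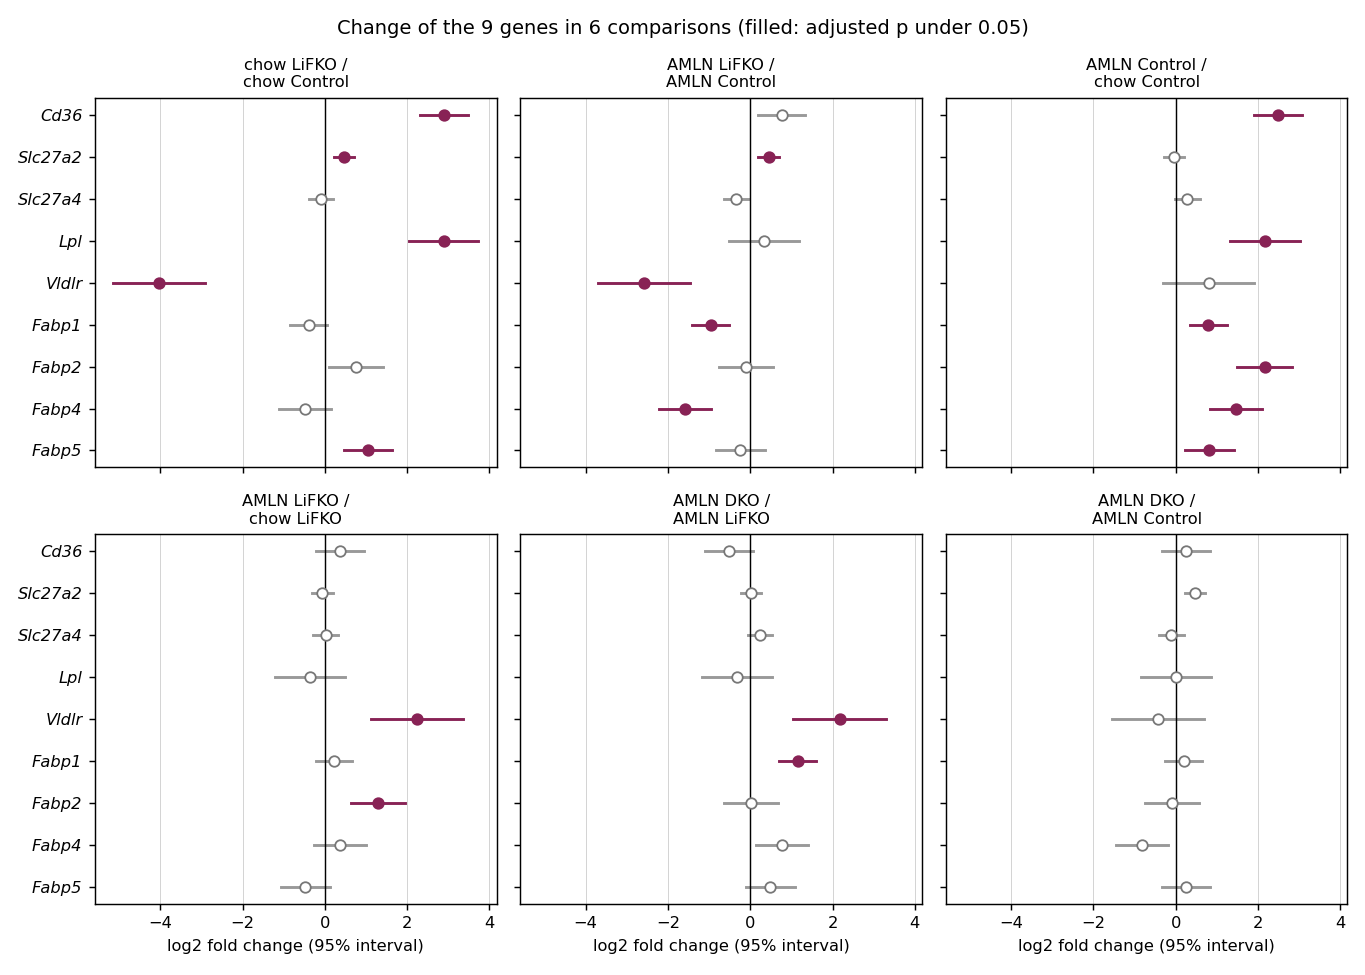
Log2 fold change (point) with its 95% interval (line) of each of the 9 genes in 6 comparisons; filled points were called at an adjusted p under 0.05. The 6 filled points of the diet comparison in Control mice all lie to the right of 0, and Vldlr lies far to the left in both LiFKO comparisons, at -4.02 and -2.58.

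Profiles over the 15 libraries were compared with all other genes by the root mean square difference of centred log2 values, for the 7 genes whose group means spanned at least 1. Closest to Cd36 were Lgals1 (0.28), Tceal8 (0.35) and Anxa5 (0.41), where the median gene differed by 1.26. Closest to Fabp1 were Aldh1a7 (0.21), Dbi (0.23) and Pdk1 (0.24), with 0.65 for the median gene. Near Fabp4 were Krt8 (0.24) and Krt18 (0.33), with 0.82 for the median gene. Lpl had Rtn4 (0.56), Apoc2 (0.57) and Nipa1 (0.58), with 1.17 for the median gene. Vldlr had Cyp2c38 (0.77), Leap2 (0.77) and Tnfrsf19 (0.82), with 1.89 for the median gene. Among the other 8 genes, Lpl was nearest to Cd36 and Cd36 nearest to Lpl (0.66), and Fabp4 was nearest to Vldlr (1.39).

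Related genes were counted in lists of transport and binding proteins, lipase control and regulators. Of 12 measured transport and binding proteins, 5 rose and 2 fell with Flcn loss on chow, and 2 rose and 2 fell on AMLN, where 25.7% and 19.7% of all genes were called. Fabp3, the heart and muscle fatty acid binding protein, moved furthest: it lay between 2.32 and 3.73 in chow Control and between 8.46 and 9.65 in chow LiFKO. On AMLN, Fabp3 lay between 1.53 and 3.81 in Control, between 8.29 and 9.7 in LiFKO and between 1.26 and 2.97 in the libraries labelled DKO. LiFKO libraries were thus far above all others on both diets, with rises of 6.01 (SE 0.69, adjusted p = 2.54e-05) on chow and 5.99 (SE 0.69, adjusted p = 3.74e-05) on AMLN. In the libraries labelled DKO Fabp3 was lower than in AMLN LiFKO by 6.63 (difference -6.63, SE 0.69). Dbi, the acyl-CoA binding protein, went the other way: it fell by 0.74 on chow (SE 0.18) and fell by 1.46 on AMLN (SE 0.18), and was higher by 1.16 in the libraries labelled DKO. Slc27a1, the muscle and adipose fatty acid transport protein, rose with Flcn loss by 0.71 on chow and by 1.01 on AMLN (SE 0.17 each). With the diet in Control mice it fell by 1.24 (SE 0.17).

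Of 14 measured genes of lipase control and plasma lipases, 3 rose and 1 fell with Flcn loss on chow and 3 rose on AMLN, Apoe being 1 of the 3 on each diet, and 4 rose and 2 fell with the diet in Control mice. Of all genes 25.7%, 19.7% and 22.8% were called in these comparisons. Apoc2, the cofactor that activates lipoprotein lipase, had a pattern near that of Lpl, with means of 12.92 ± 0.07 in chow Control, 14.98 ± 0.23 in chow LiFKO, 15.01 ± 0.1 in AMLN Control and 15.69 ± 0.01 in AMLN LiFKO (SD, n = 3). It rose by 2.06 with Flcn loss on chow (SE 0.14) and by 2.09 with the diet (SE 0.14), and its LiFKO effect also differed between diets (difference -1.38, SE 0.19, adjusted p = 0.00763). Hepatic lipase, Lipc, fell by 1.1 with Flcn loss on chow (SE 0.14, adjusted p = 5.93e-05). Apoe is left undescribed, because it had the same value in all 3 libraries of each group, an SD of 0 that comes with a shared distribution at the highest ranks.

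Scarb1, the HDL receptor, rose by 0.57 on chow and by 0.66 on AMLN with loss of Flcn (SE 0.08 each). Of 15 regulators, 3 rose and 1 fell on chow and 4 rose and 1 fell on AMLN, against 25.7% and 19.7% of all genes called. Ppargc1a, a coactivator of the PPAR receptors, rose by 2.23 and 2.18 (SE 0.23 each) with loss of Flcn. Pparg, the adipocyte form of these receptors, rose by 1.36 with the diet in Control mice (SE 0.23) and fell by 0.83 in AMLN LiFKO (SE 0.23, adjusted p = 0.0179). It was higher by 1.04 in the libraries labelled DKO (SE 0.23).

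**Figure D3:**
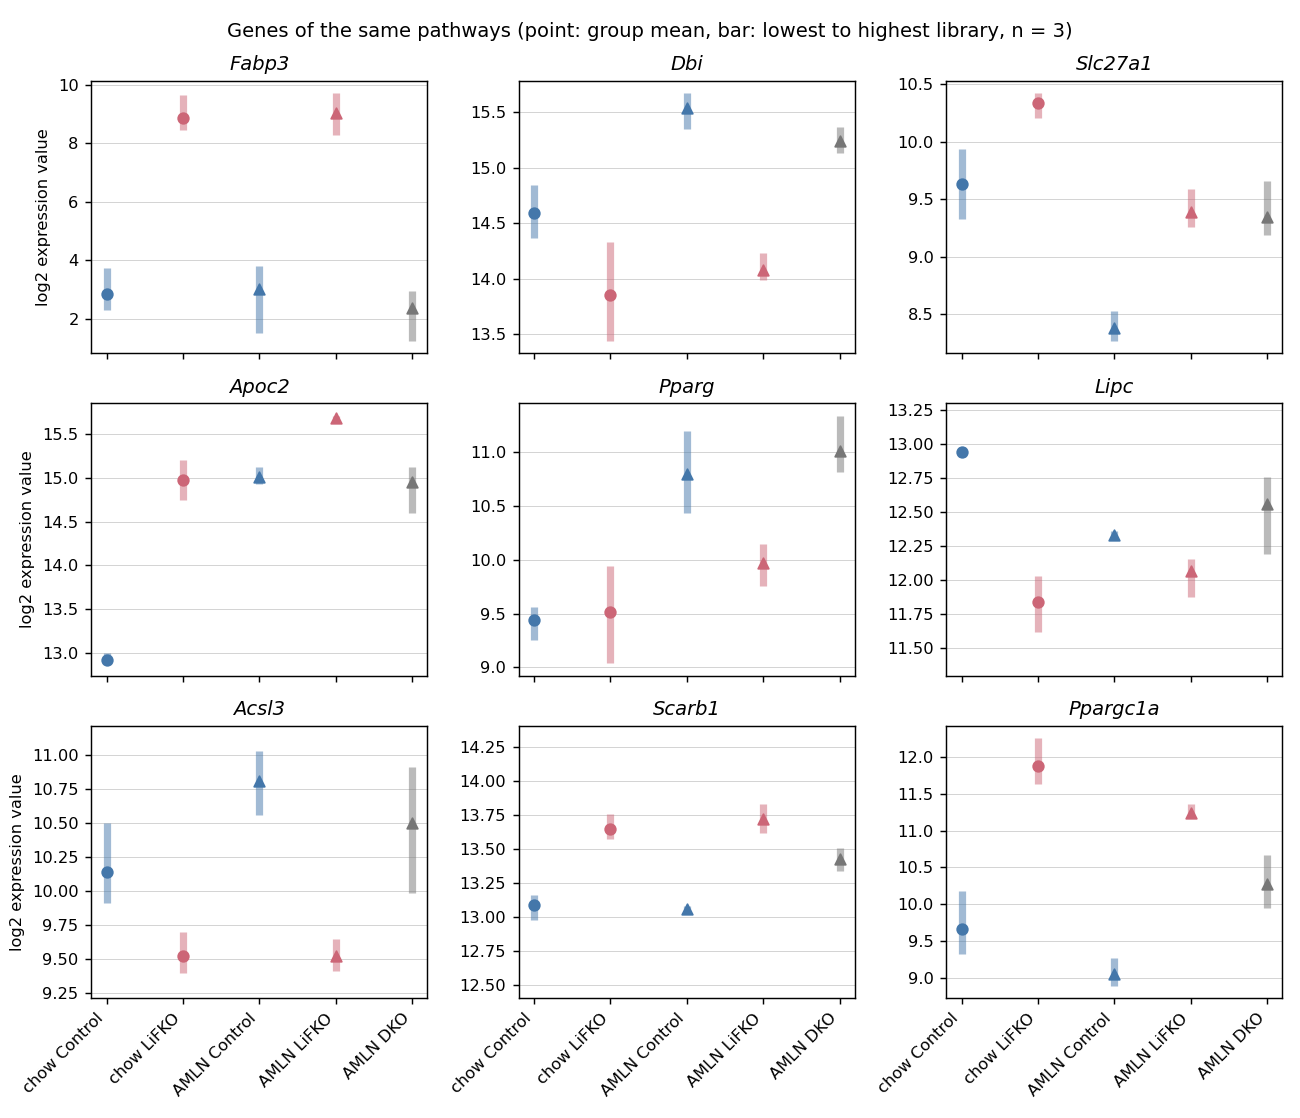
Log2 expression value (vertical axis) of 9 genes of the same pathways by group, as the group mean (point) and the range of its 3 libraries (bar). Fabp3 reaches 8.29 or more in every LiFKO library and stays at 3.81 or less in all others.

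Peaks were taken from the authors' lists, each called on pooled libraries, and a peak counted for a gene when it lay in the gene or within 10 kb of it. Over all 8 lists there were 31 distinct sites at 7 of the 9 genes, 18 of them within the gene. The TFE3 lists of Control livers marked 2 of the 9 genes on chow, 2 on FPC and 2 with nSREBP-1c, where 48.2%, 41.6% and 43.7% of all 13815 genes were marked. The lists of LiFKO livers marked 6, 6 and 7 of the 9, where 73.8%, 71.7% and 79.8% of genes were marked. The LiFKO counts are near the share of all genes and so are no result about these 9, and the LiFKO lists were the longer ones (26445 peaks against 11385 on chow). Of the 31 sites, 22 appeared in LiFKO TFE3 lists alone, 8 in at least 1 Control TFE3 list, and 8 in all 3 LiFKO TFE3 lists. These counts, and the 7 of 9 genes with a site, were not set against all genes, so they are no result about these 9. The LiFKO lists were also longer on FPC (27751 peaks against 9647) and with nSREBP-1c (35325 against 10827). Per the file headers, the pools of 3 of the 6 TFE3 lists (FPC Control, FPC LiFKO and Control+1c) contain a library whose name reads as input, with a library named for TFE3 on the background side, so scores in these lists may not be a plain TFE3 over input value. No library names were read for the chow Control and chow LiFKO lists, so their pools were not checked. The pool of 1 of the 2 HA lists (LiFKO+1c) contains a library named for TFE3. Scores below are the authors' peak scores, compared within a list only.

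Cd36 carried 10 sites, all inside the gene and all in TFE3 lists. At 107270 bases it is the longest of the 9 genes, so its sites were counted over the widest window. Distances here run from the outer end of the mm9 gene span, taken as the start. Whether the promoter printed above lies at that end was not checked. The site at chr5:17369033-17369228, 25651 bases inside that end, was in 5 of the 6 TFE3 lists, all but chow Control. It scored 36.4 in chow LiFKO, where 87.9% of peaks scored lower, 24.2 in FPC LiFKO (85.5% lower) and 32.7 in LiFKO+1c (89.2% lower). In FPC Control and Control+1c it scored 9.51 (51.7% lower) and 11.8 (77.3% lower). A second site, at chr5:17387349-17387549, 7335 bases inside the same end, was in the 3 LiFKO lists only, with scores of 30.3, 18.4 and 20.1.

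At Slc27a2 there were 6 sites, and the one nearest the start, at chr2:126378448-126378653, was in the chow Control, FPC LiFKO and LiFKO+1c lists with scores of 14.3, 16.7 and 20.5. Slc27a4 had 3 sites, each in 1 list, and the one centred 58 bases before the start (chr2:29658014-29658178, score 18.4 in LiFKO+1c) falls in the promoter printed above if both builds place the start alike. Fabp1 had 4 sites. The one at its start, chr6:71149677-71149858, was in the FPC LiFKO and LiFKO+1c lists with scores of 9.65 and 11.2, and its centre in the first lay 46 bases before the start. In distance from the start, this peak spans the relaxed DR1 in capitals, again only if both builds place the start alike. Neither start site was in a Control list, and the RNA of Slc27a4 was not called in any comparison.

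Fabp2 had 3 sites, all in LiFKO lists alone. Those at chr3:122591228-122591423 (scores 21.7, 17.2 and 23.4) and chr3:122598228-122598466 (24.3, 11.8 and 15.8) were in all 3 of them. Lpl had 2 sites. The first, chr8:71402333-71402606, lay 1838 bases outside the low-coordinate end of the gene and scored 5.56 in chow Control, 10.2 in chow LiFKO, 15.4 in FPC LiFKO and 21.3 in LiFKO+1c. The second, chr8:71407677-71407866, inside the gene, was in the TFE3 lists of FPC LiFKO (10.3) and LiFKO+1c (15) and was the only site of the 9 genes in an HA list, Control+1c, with a score of 6.53 (50.7% of that list lower). HA peaks thus marked 1 of the 9 genes in Control+1c and 0 in LiFKO+1c, where 9.39% and 7.24% of genes were marked. No TFE3 and HA peak of the same condition shared sequence at these genes.

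Fabp5 had 3 sites. Its site on the high-coordinate side, chr3:10022594-10022917, scored 7 in chow LiFKO, 6.11 in Control+1c and 20.9 in LiFKO+1c. In the authors' deposited table of TFE3 peaks that differ between LiFKO+1c and LiFKO, with 96 peaks that were all higher with nSREBP-1c, a peak at chr3:10022594-10022758 was assigned to Fabp5, 10091 bases from its start, with a log2 fold change of 2.08 and an adjusted p of 0.0108. Vldlr and Fabp4 had no site within 10 kb in any of the 8 lists. The nearest TFE3 peak in chow LiFKO lay 39625 bases from Vldlr and 35250 bases from Fabp4. The gene whose RNA moved most among the 9, Vldlr, was therefore 1 of the 2 without a peak in this window. At Fabp3, looked up after its RNA values were seen, the chow LiFKO list had 1 peak (score 15.9), the FPC LiFKO and LiFKO+1c lists had 3 each (highest scores 25.1 and 38.5), and the other 5 lists had 0.

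**Figure D4:**
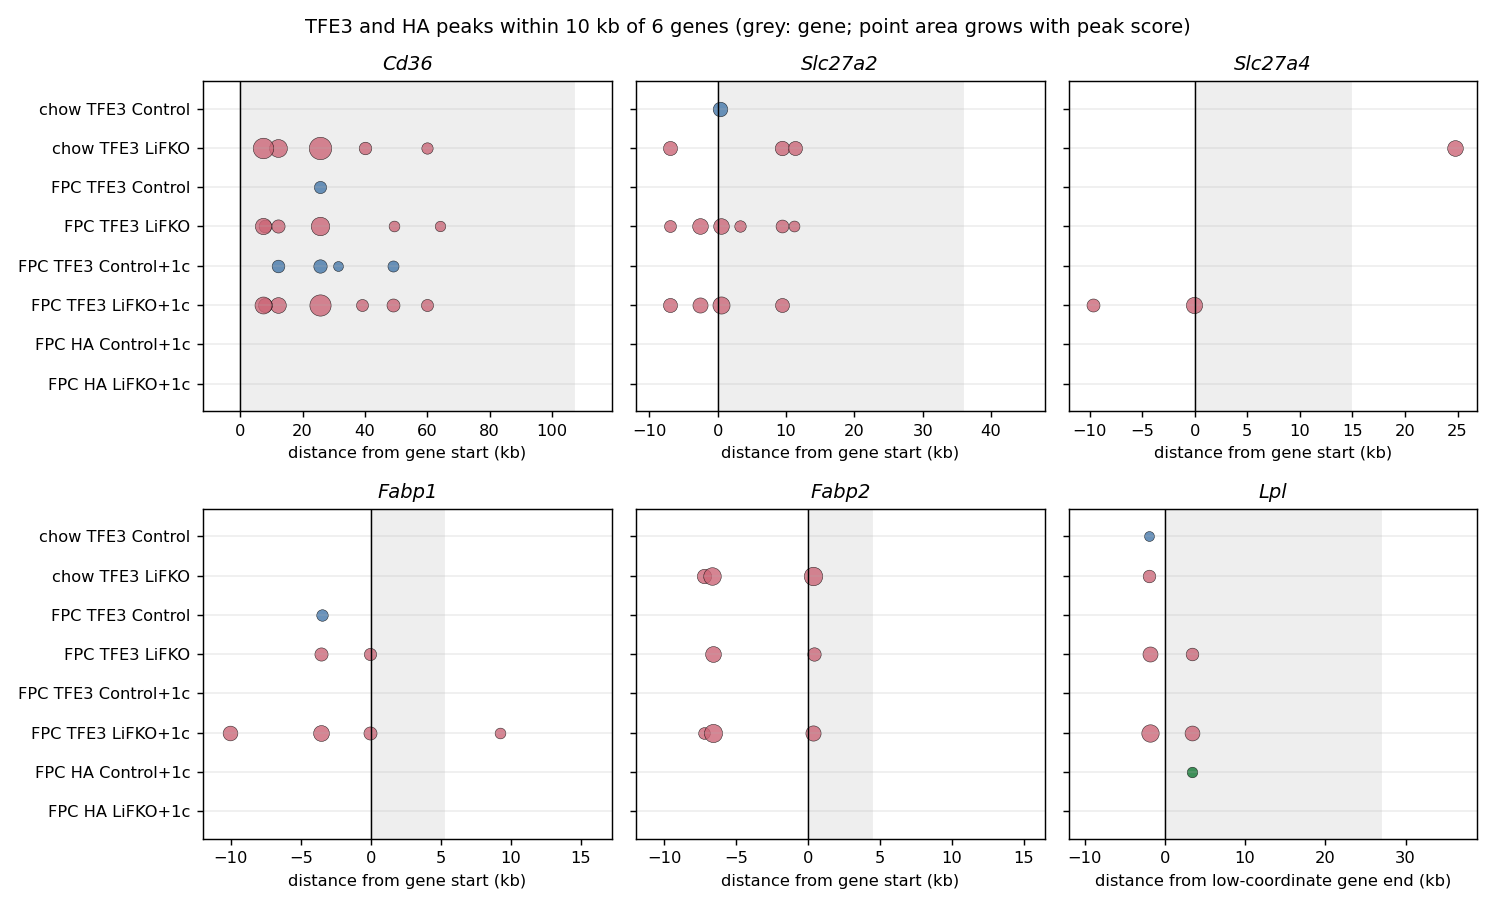
Peaks within 10 kb of 6 of the genes by list (rows), placed by distance from the gene start in kb (for Lpl, from the low-coordinate end); grey spans the gene, point area grows with the authors' score, red marks LiFKO TFE3 lists, blue Control TFE3 lists and green HA lists. The start is the outer end of the mm9 gene span, which need not be the start of a printed promoter. Red points are the most frequent at each gene, and 1 green point, at Lpl, is the only HA peak.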

How the data were processed

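The authors deposited RNA-seq as log2 expression (13815 genes, 15 libraries). STAR 2.6.0c, featureCounts and limma on mm9 are named per the submitters' processing notes. Quartiles agreed between libraries to within 0.02, so the values had been quantile normalised; counts, the offset and the depth are unknown. Peak lists hold the authors' HOMER peak score of pooled libraries, per the file headers, and are described without tests. In the authors' deposited table of differing peaks each peak has a fold change (log2) with a p-value adjusted by the authors; its 6 columns of single libraries were not used.

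A mean per group was fitted over all 15 libraries (limma 3.58.1, R 4.3.3, mean-variance trend, 10 residual degrees of freedom, two-sided), with Benjamini-Hochberg adjustment over all genes. The fit was tested on simulated data. The members and lists were chosen with earlier results of these data known. Named were all 9 genes, Flcn, Tfe3, up to 3 genes per list with the smallest p in a comparison, and the 3 nearest profiles; 2 genes of that choice, and the counts of lipoprotein receptor genes, are not reported here. Same-numbered chow LiFKO and Control libraries deviated together (correlations over genes from 0.113 to 0.237, all 3 over 0.1), so these numbers were taken as pairs. In no other comparison were all 3 over 0.1. The labels state no pairing, and libraries with unlike numbers also reached 0.21 (chow LiFKO replicate 3 with AMLN Control replicate 1). Fabp3 peaks and the looser motifs were chosen after values were seen. Gene positions are those of the table (mm9); strands come from RefSeq GRCm38.p6. Alternatives were other variance priors, filters, centring, replicate blocks, left-out libraries, peak windows and score minimums.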

Additional observations from a re-analysis of the deposited data

Results flagged for a closer look

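The effect of Flcn loss differed between chow and AMLN for 2 of the 9 genes, by an interaction term in limma that called 1.04% of all genes. For Cd36 the log2 difference of the effects was -2.12 (2.89 on chow, 0.76 on AMLN; SE 0.38, adjusted p = 0.0203), and for Lpl it was -2.54 (2.89 on chow, 0.34 on AMLN; SE 0.56, adjusted p = 0.0476). In both genes AMLN Control livers already read above all chow Control livers. The Lpl call ended in 11 of 12 fits that left out 1 library, and with no mean-variance trend (adjusted p = 0.0886), a robust prior (0.088) or the replicate block over all libraries (0.062). The Cd36 call ended in 4 of those 12 fits.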

How the results depend on the processing

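All 63 differences of the 9 genes over the 7 comparisons kept their side of the threshold under median centring of the libraries and without the genes lowest in mean level. Of 441 values under all settings that keep every library, 424 kept their side, 12 lost a call and 5 gained one, and 0 changed sign. Of 432 with 1 library left out, 389 kept their side, 36 lost a call and 7 gained one, and 22 changed sign, all of them uncalled in both fits and at most 0.25 in size with all libraries. The cause of these changes was not tested, except that leaving out a library leaves fewer samples.

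Within LiFKO mice the diet called 2 genes of the 9, but 1 with the groups compared only, 0 with no mean-variance trend, 1 with a robust prior and 1 with the replicate block in the groups compared, and 0 to 1 with a library left out. For the difference between diets 2 became 1 with no trend, 1 with a robust prior and 1 with the replicate block over all libraries, and 0 to 2 with a library left out. For the libraries labelled DKO, leaving out a library gave 1 to 2 calls against AMLN LiFKO and 0 to 1 against AMLN Control.

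Counts over all genes moved too. The diet in Control mice called 3154 genes, 1218 with the replicate block in the groups compared, and 1938 to 3257 with a library left out. In LiFKO mice it called 517, but 215 with the groups compared only, 61 with that block and 175 to 497 with a library left out. DKO against AMLN LiFKO called 1523, 765 with that block and 991 to 1280 with a library left out. DKO against AMLN Control called 90, but 15 with the groups compared only, 30 with no trend and 24 to 231 with a library left out (231 without AMLN DKO replicate 1). The difference between diets called 144, but 72 with no trend, 351 with that block and 27 to 334 with a library left out (334 without AMLN Control replicate 3). On chow, where numbers were taken as pairs, the block in the groups compared called 3763 genes against 3545 and 7 of the 9 against 5. It changed no other chow call of the 9 than Fabp1 and Fabp2. Elsewhere numbers were not taken as pairs. There that block called Cd36 lower in DKO than in AMLN LiFKO (-0.51, adjusted p = 0.0283) and Fabp4 in the difference between diets (-1.1, adjusted p = 0.0315). It lost Fabp1 (adjusted p = 0.111) and Fabp5 (adjusted p = 0.0734) with the diet in Control mice and Vldlr (adjusted p = 0.162) with the diet in LiFKO mice.

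Genes of the 9 with a TFE3 peak numbered 2 in chow Control, but 7 within 50 kb and 0 at or above the list's median score (of all genes 48.2%, 68.6% and 33.8%). In chow LiFKO 6 became 2 at that score (57.2% of all genes). In FPC Control 2 became 1 within 2 kb, 4 within 50 kb and 1 at that score (33.3%, 65.1% and 28.7%), and in Control+1c 2 became 1 within 2 kb, 1 within 5 kb, 4 within 50 kb and 1 at that score (34.4%, 37.8%, 68.1% and 30.4%). With an HA peak, 1 became 3 in Control+1c and 0 became 2 in LiFKO+1c within 50 kb (19.3% and 15.8%). Read depth is unknown, so no limit of detection can be given for low genes such as Vldlr in LiFKO livers.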

Other observations

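Of 10 measured acyl-CoA synthetases, which activate fatty acids once they are inside the cell, 2 rose and 4 fell with loss of Flcn on chow, and again 2 rose and 4 fell on AMLN, where 25.7% and 19.7% of all genes were called. Acsl3, a long-chain synthetase of lipid droplets, fell by 0.62 on chow (SE 0.21) and by 1.29 on AMLN (SE 0.21, limma adjusted p = 0.000596), and was higher by 0.97 in the libraries labelled DKO than in AMLN LiFKO (SE 0.21). Acss2, which makes acetyl-CoA from acetate, fell by 0.78 (SE 0.18) and by 1.31 (SE 0.18), and was higher by 0.72 in the libraries labelled DKO (SE 0.18). Acsl5 fell by 0.83 on AMLN (SE 0.17, adjusted p = 0.00359), after a rise of 1.01 with the diet in Control mice (SE 0.17). Acsm3, a medium-chain synthetase, rose by 0.57 on chow (SE 0.12) and by 1.17 on AMLN (SE 0.12, adjusted p = 2.03e-05).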
